A study of Mus musculus with 6 samples.

Results

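The genes described here carry out and control the synthesis of cholesterol and fatty acids. They were chosen by name, as the rows of the deposited expression table whose symbol is in a list of 38 genes and whose mean over the 6 libraries is at least 10. That left 37 of the 38, out of 24404 genes listed, of which 13490 reached the same mean and were tested. Thrsp, a small protein tied to lipogenesis, was the gene left out, with normalised counts of 11.95, 4.74 and 8.13 in control libraries 1, 2 and 3 and 7.39, 0 and 3.19 in Klf5 LKO. The 37 were read as 18 sterol enzymes, 6 genes of sterol regulation and transport, and 13 genes of the fatty acid arm.

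RNA came from biliary epithelial cells, which form the lining of bile ducts, taken from the intrahepatic bile duct of adult C57BL/6 mice. Every mouse had DDC injury for 1 week, DDC being a compound that damages bile ducts, and every mouse carried the Klf5flox/flox alleles. The 3 Klf5 LKO libraries had the genotype Alfp-CreTg/+;Klf5flox/flox and the 3 control libraries Alfp-Cre+/+;Klf5flox/flox, so the controls had the floxed gene and no Cre. Alfp-Cre is driven by regulatory sequences of liver epithelial cells and also acts in hepatocytes. The groups compared here include none without injury and none with Cre alone, so an effect of Cre cannot be told apart from the loss of Klf5. Whether the libraries are from different mice is not in the labels, so the p-values speak only of the spread among these 6 libraries, some of which may be technical. Total reads assigned to genes ran from 11726934 (control 2) to 24784167 (Klf5 LKO 2), and Spearman correlations between libraries from 0.965 to 0.985. For Klf5, the transcription factor that was deleted, normalised counts were 2056, 2018 and 2316 in the controls and 977, 1192 and 1183 in Klf5 LKO (log2 difference -0.93, limma adjusted p = 0.0103).

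Cholesterol is built from acetyl-CoA through mevalonate, isoprenoid units and squalene, which is closed into lanosterol and trimmed to the finished sterol. Fatty acids are built from the same acetyl-CoA with reducing power from NADPH, then lengthened and desaturated. Both routes are switched on by SREBP transcription factors, which SCAP carries out of the endoplasmic reticulum when sterols are low and which INSIG proteins hold back when sterols are high. In the liver the hepatocyte is the main site of both routes, and bile duct cells handle the bile acids and cholesterol that hepatocytes secrete.

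Expression of the sterol synthesis genes did not differ detectably between Klf5 LKO and control, and in the fatty acid arm the differences with the lowest p were in Acss2 and Me1, which supply acetyl-CoA and NADPH. With limma on log2(normalised count + 1) and Benjamini-Hochberg adjustment over all 13490 genes, 0 of the 37 members passed the 0.05 threshold. Over all tested genes 0.652% passed, 0.489% lower and 0.163% higher in Klf5 LKO. At an unadjusted p under 0.05, 2 of the 37 were below, against 10.9% of all tested genes. On the recovered reads, edgeR and limma-voom called 0 of the 37, where they called 0.623% and 0.549% of all genes. DESeq2 called 1, Me1, which was lower in Klf5 LKO, where it called 2.48% of all genes and 1.6% as lower. When every listed gene was fitted, a setting added after the data were seen, DESeq2 called Acss2 as well, where it called 2.32% of genes and 1.51% as lower. The groups did not overlap for 3 of the 37, Acss2, Me1 and Scd1, against 15.6% of all tested genes, and 2 of the 37 were lower without overlap, against 7.88%. Neither the count without overlap nor that at an unadjusted p under 0.05 exceeded the share over all tested genes. The log2 difference was below 0 for 27 of the 37, or 73.0%, against 50.8% of all tested genes. The members share libraries and vary together, so these are not separate observations.

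**Figure D1:**
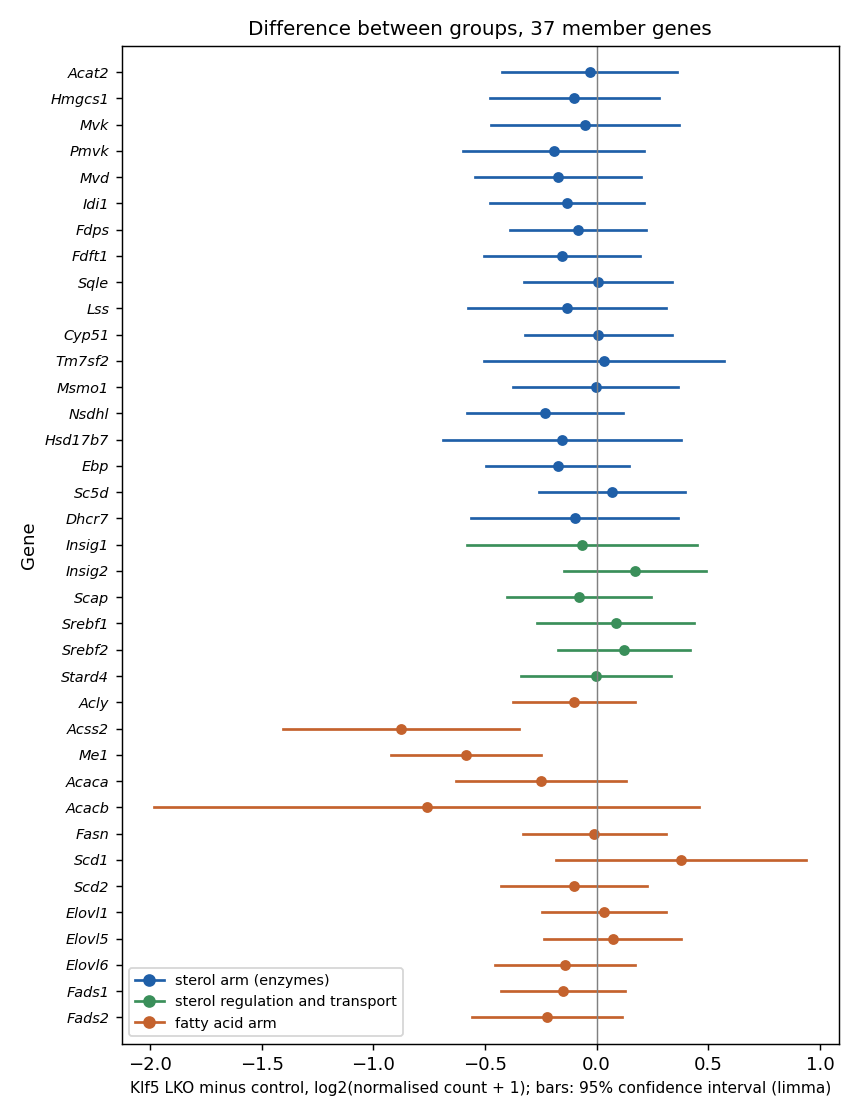
Difference between groups for each of the 37 genes, Klf5 LKO minus control on the log2(normalised count + 1) scale, as a point with its 95% confidence interval from limma; colour gives the arm. All intervals of the 18 sterol enzymes cover 0 and lie between -0.69 and 0.57, while those of Acss2 and Me1 lie below 0.

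Promoters of 4 members are shown because the text returns to these genes: Hmgcs1, the most highly expressed sterol enzyme for its length, Insig1, a regulator that is itself an SREBP target, and Acss2 and Me1, the members with the lowest p. Each runs from 250 bases before to 50 bases after a start site of RefSeq (GRCm38.p6), 5′ to 3′ on the gene's strand. They are Hmgcs1 (chr13:119690101-119690400, plus strand), Insig1 (chr5:28071162-28071461, plus strand), Acss2 (chr2:155517793-155518092, plus strand) and Me1 (chr9:86695865-86696164, minus strand). In all 4, capitals mark matches on either strand to CCAAT, the letters read by NF-Y, a partner of SREBP, to TCACNCCAC, the core of a sterol regulatory element, to CACGTG, an E-box, and to CCNCNCCC, a GC-rich pattern of the kind read by Krüppel-like and Sp factors. On the other strand CCAAT appears as ATTGG.
Hmgcs1: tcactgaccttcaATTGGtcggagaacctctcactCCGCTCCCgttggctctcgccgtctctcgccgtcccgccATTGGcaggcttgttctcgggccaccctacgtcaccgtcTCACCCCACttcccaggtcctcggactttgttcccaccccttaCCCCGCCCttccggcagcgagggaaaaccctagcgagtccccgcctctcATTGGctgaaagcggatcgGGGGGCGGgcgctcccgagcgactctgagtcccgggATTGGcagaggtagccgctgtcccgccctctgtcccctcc
Insig1: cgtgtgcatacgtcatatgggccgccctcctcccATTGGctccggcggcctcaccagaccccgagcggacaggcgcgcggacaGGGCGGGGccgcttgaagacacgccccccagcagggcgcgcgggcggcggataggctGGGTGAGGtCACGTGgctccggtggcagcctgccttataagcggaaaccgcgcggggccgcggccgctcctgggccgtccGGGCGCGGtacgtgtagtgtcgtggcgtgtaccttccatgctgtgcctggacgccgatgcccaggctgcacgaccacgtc
Acss2: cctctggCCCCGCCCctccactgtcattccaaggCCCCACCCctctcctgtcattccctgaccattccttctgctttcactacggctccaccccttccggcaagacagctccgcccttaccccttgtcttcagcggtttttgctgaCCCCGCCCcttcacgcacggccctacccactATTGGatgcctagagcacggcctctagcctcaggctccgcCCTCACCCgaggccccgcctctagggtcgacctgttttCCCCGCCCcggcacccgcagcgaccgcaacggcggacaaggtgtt
Me1: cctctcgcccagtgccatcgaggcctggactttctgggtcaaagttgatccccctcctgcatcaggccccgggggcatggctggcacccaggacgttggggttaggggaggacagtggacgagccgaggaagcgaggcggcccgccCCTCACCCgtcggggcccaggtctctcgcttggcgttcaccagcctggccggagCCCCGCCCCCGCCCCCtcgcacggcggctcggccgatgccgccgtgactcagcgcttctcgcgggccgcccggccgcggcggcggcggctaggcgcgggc
Hmgcs1 held 4 matches of CCAAT, 1 of TCACNCCAC and 3 of CCNCNCCC. Insig1 held 1 of CCAAT, 1 of CACGTG and 3 of CCNCNCCC. Acss2 held 1 of CCAAT and 5 of CCNCNCCC. Me1 held 5 of CCNCNCCC, where 4 of them overlap one another, and its other listed start held 1 of CCAAT and 0 of CCNCNCCC. CCNCNCCC thus occurred in all 4, and it occurred in 72.0% of tested genes with a promoter in the table. Of those tested genes 14.5% held 5 or more. Among the other members, Elovl1, Dhcr7 and Srebf2 also held 5 in a listed promoter, with log2 differences of 0.032, -0.10 and 0.12.

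The RefSeq table gave a promoter of this length for 31 of the 38 members. CCAAT occurred in 14 of 15 sterol enzymes, 4 of 5 regulation genes and 8 of 11 fatty acid genes (Thrsp among them), against 42.6% of tested genes. GGGCGG, a GC box that overlaps many matches of CCNCNCCC, occurred in 14 of 15, 5 of 5 and 5 of 11, against 68.0% of tested genes. CCNCNCCC itself occurred in 11 of 15, 5 of 5 and 6 of 11, against 72.0%. TCACNCCAC occurred in Hmgcs1 alone, against 1.43% of tested genes, and CACGTG in 3, 2 and 1 of the same sets, against 11.5%. A gene with several starts counts if any of its promoters holds the letters, on either strand. These matches describe the sequence and are not sites of binding.

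The early sterol enzymes make mevalonate and the isoprenoid units. Hmgcs1, which joins acetyl units into HMG-CoA, was the most highly expressed of the 37 for its length, with 2354 normalised counts per kilobase of exon (mean of 6 libraries). Its normalised counts were 11865, 13078 and 8683 in control libraries 1, 2 and 3 and 8469, 10582 and 12203 in Klf5 LKO libraries 1, 2 and 3. The groups overlapped widely: the highest library was control 2, and control 3 lay below the middle Klf5 LKO library. The log2 difference was -0.10 (SE 0.17, 95% interval -0.48 to 0.28, adjusted p = 0.884). Acat2, the thiolase that pairs acetyl-CoA units, had 2089 ± 461 in the controls and 2025 ± 319 in Klf5 LKO (SD, n = 3 here and below). Of distinct 50-base stretches in Acat2 transcripts, 39.1% also occur in another gene, mostly Acat3. Mean counts of Acat3 itself were 87.5 in the controls and 50.1 in Klf5 LKO, so few reads were assigned to that copy.

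The mevalonate kinases and the decarboxylase had slightly lower means in Klf5 LKO. Mvk, which phosphorylates mevalonate, had 677 ± 90.3 in the controls and 659 ± 137 in Klf5 LKO (log2 difference -0.052, 95% interval -0.47 to 0.37). Pmvk, which adds the next phosphate, had 667 ± 105 in the controls and 582 ± 74.7 in Klf5 LKO (-0.19, interval -0.60 to 0.21). Mvd, which then removes a carboxyl group, had 911 ± 138 in the controls and 806 ± 96.9 in Klf5 LKO (-0.17, interval -0.55 to 0.20). None of these differences exceeded the spread between libraries of 1 group. Idi1, which interconverts the isoprenoid units, had 4644, 5435 and 3866 in the controls and 3637, 4038 and 5059 in Klf5 LKO. Fdps, which joins them into farnesyl diphosphate, had 6652, 7996 and 5546 in the controls and 6000.4, 6275 and 6589 in Klf5 LKO. In both genes control 2 was the highest of the 6 libraries, and control 3 lay below every other control. Their log2 differences were -0.13 and -0.083. Of their 50-base stretches, 17.7% in Idi1 and 26.2% in Fdps also occur in other annotated genes.

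The squalene steps showed the same order among the controls, and other orders within Klf5 LKO. Fdft1, squalene synthase, had normalised counts of 5321, 6539.9 and 4117 in control libraries 1, 2 and 3 and 4274, 4819 and 5024 in Klf5 LKO. Sqle, squalene epoxidase, had 5278, 6657 and 4284 in the controls and 5272, 5561 and 5215 in Klf5 LKO. Lss, which closes the ring to lanosterol, had 1869, 2494 and 1420.4 in the controls and 2088, 1703 and 1415 in Klf5 LKO. In all 3 genes control 2 was the highest of the 6 libraries, and the lowest was control 3 in Fdft1 and Sqle and Klf5 LKO 3 in Lss. The log2 differences were -0.16 for Fdft1, 0.0075 for Sqle and -0.13 for Lss. The interval for Sqle was -0.32 to 0.34, and its difference lay just below 0 with upper quartile scaling, as did that of Cyp51.

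The enzymes that trim lanosterol to cholesterol ran in both directions by small amounts. Cyp51, which removes a methyl group from lanosterol, had 5345, 6722 and 4358 in the controls and 5276, 5532 and 5459 in Klf5 LKO, a log2 difference of 0.0084 (interval -0.32 to 0.34). Msmo1, which starts the removal of the remaining methyl groups, had 4822 ± 1142 in the controls and 4721 ± 406 in Klf5 LKO (-0.0039, interval -0.37 to 0.37). Nsdhl, its partner in that removal, had the lowest log2 difference of the arm. Its libraries held 1996, 2337 and 1563 in the controls and 1557, 1596 and 1812 in Klf5 LKO, a difference of -0.23 (SE 0.16, 95% interval -0.58 to 0.12, adjusted p = 0.650). Control 3 lay within the Klf5 LKO range, so the groups overlapped. Hsd17b7, the ketone reductase of that step, varied most within Klf5 LKO, with 541, 793 and 1101 against 801, 1097 and 743 in control (-0.16, interval -0.69 to 0.38).

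Of the last steps, Tm7sf2, a sterol reductase, had the lowest level of the arm per length, 58.9 normalised counts per kilobase, with 254 ± 14.6 in the controls and 265 ± 59.5 in Klf5 LKO. Vps51, annotated on the same strand, overlaps its exons, so some reads of either gene cannot be told apart. Ebp, the sterol isomerase, had 993 ± 94.99 in the controls and 878 ± 34.1 in Klf5 LKO (-0.17, interval -0.50 to 0.15). Sc5d, the desaturase that follows it, was the enzyme with the highest log2 difference, 0.070 (interval -0.26 to 0.40), from 3307, 3834 and 3117 in the controls and 4134, 2914 and 3798 in Klf5 LKO. Dhcr7, the final reductase, had 747, 1023 and 864 in the controls and 606, 1075 and 824 in Klf5 LKO, with the lowest and the highest library both in Klf5 LKO (-0.10, interval -0.56 to 0.36). Taking the 18 enzymes together, the median log2 difference was -0.10, against -0.0052 over all tested genes, with 14 below and 4 above 0. The adjusted p-values ran from 0.650 to 0.997, and 0 had an unadjusted p under 0.05. For all 18 the 95% interval lay within 1 log2 unit of 0, and the bounds farthest from 0 were -0.69 (Hsd17b7) and 0.57 (Tm7sf2), or 38.0% lower and 48.5% higher. The median was 0.035 without control 2 and -0.24 without control 3, so its sign depended on control 2.

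The genes that sense sterols did not differ detectably either. Insig1, a holder of SREBP that is itself an SREBP target, varied most of the 6, with normalised counts of 4289, 6864 and 3879 in control libraries 1, 2 and 3 and 3235, 5581 and 5516 in Klf5 LKO. Its highest library was control 2 and its lowest Klf5 LKO 1, and the groups overlapped. The log2 difference was -0.066 (SE 0.24, 95% interval -0.58 to 0.45, adjusted p = 0.948). Insig2, which has the same role and is not driven by SREBP in the same way, had 1449, 1441 and 1669 in the controls and 1969, 1486 and 1701 in Klf5 LKO (0.17, interval -0.15 to 0.49). Within each library Insig1 was higher than Insig2 per kilobase of exon, by 2.61 to 5.35 times in control and by 1.84 to 4.22 times in Klf5 LKO.

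Srebf1 codes for the SREBP forms that favour fatty acid genes and Srebf2 for the form that favours sterol genes. Srebf1 had 2441, 2978 and 3156 in the controls and 2964, 3702 and 2497 in Klf5 LKO. Srebf2 had 3094, 3472 and 2951 in the controls and 3823, 3638 and 2946 in Klf5 LKO. The means were slightly higher in Klf5 LKO and the groups overlapped, with log2 differences of 0.086 (interval -0.26 to 0.44) and 0.12 (interval -0.17 to 0.42). Per kilobase of exon they stood close to each other, with a ratio of Srebf1 to Srebf2 from 0.989 in Klf5 LKO 1 to 1.36 in control 3. Scap, the escort of SREBP, had 1766 ± 47.9 in the controls and 1687 ± 279.7 in Klf5 LKO (-0.080, interval -0.40 to 0.24), and Stard4, a carrier of cholesterol between membranes, 949 ± 57.5 in the controls and 951 ± 119.6 in Klf5 LKO (-0.0026, interval -0.34 to 0.33). Over the 6 genes the median log2 difference was 0.041, with 3 below and 3 above 0, and adjusted p-values ran from 0.727 to 0.998. SREBP cleavage was not measured, and the RNA levels of Srebf1 and Srebf2 do not show it.

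**Figure D2:**
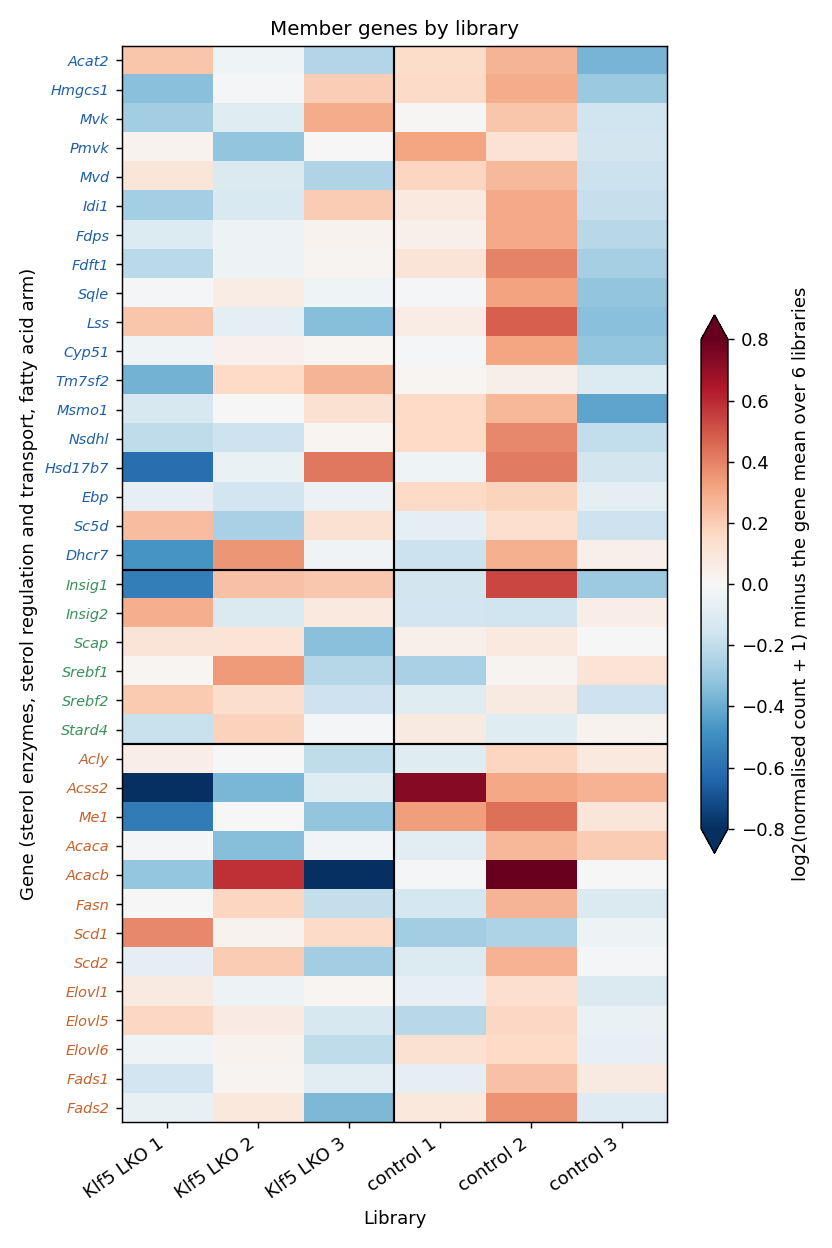
Each of the 37 genes (rows, coloured by arm) in each library (columns), as log2(normalised count + 1) minus the mean of that gene over the 6 libraries; red is above and blue below that mean. Control 2 is red over most sterol enzymes and control 3 blue, while Acss2 and Me1 are blue or near 0 in Klf5 LKO and red in control.

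The sterol enzymes largely shared an order among the control libraries. Control 2 was the highest of the 3 controls in 17 of the 18 enzymes and control 3 the lowest in 17, and both held in 16, or 88.9%. Over all tested genes control 2 was highest and control 3 lowest among the controls in 16.7%. The mean deviation of the 18 enzymes from their 6-library means, on the log2 scale, was 0.069, 0.28 and -0.21 in control 1, 2 and 3 and -0.13, -0.049 and 0.044 in Klf5 LKO 1, 2 and 3. The 3 Klf5 LKO libraries all lay between control 2 and control 3. In all 18 enzymes the fold between the highest and the lowest library of 1 group was larger than the fold between the groups. A range of single libraries tends to exceed a difference of means, and the share over all tested genes was not computed, so nothing is concluded from this. Among the controls the fold between the highest and the lowest library had a median of 1.46 over the 18 enzymes. The fatty acid arm shared the high value of control 2 (0.28) but not the low value of control 3 (0.015), and its lowest library was Klf5 LKO 3 (-0.24).

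Other features also differed among the libraries. Control 2 had the fewest reads, 11726934, and control 1 and control 3 had 20066745 and 17665210. The summed normalised count of 10 leukocyte markers was 26428, 15136 and 4499 in control 1, 2 and 3 and 19990.2, 7654 and 9319 in Klf5 LKO 1, 2 and 3, and most of it was Cd74, while Ptprc, which defines leukocytes, ran from 16.3 to 326 in control and from 12.7 to 97.8 in Klf5 LKO. None of the 8 leukocyte markers tested passed, and their median log2 difference was -1.40, lower in Klf5 LKO, while that of Cd74 was -0.066. The summed count of 12 hepatocyte markers lay between 18069 and 25409 in control and between 18243 and 25103 in Klf5 LKO. Alb, the most abundant of them, had 8188 ± 1336 in control and 7239.8 ± 1711 in Klf5 LKO, while Cps1, a urea cycle enzyme of hepatocytes, was at 0 in 3 libraries and no higher than 10.6. Of 10 hepatocyte markers tested, 1 passed with limma as lower and 1 as higher, where 0.489% and 0.163% of all tested genes did. The median log2 difference of the list was 0.072, and 3 had an unadjusted p under 0.05, where 10.9% of all tested genes did. By group means Apob fell, from 725 to 314, and Ahsg rose, from 2807 to 6192. Of the 9 Kupffer cell and macrophage markers, Clec4f, Cd5l and Vsig4 were at 0 in all 6 libraries, and Csf1r was the most abundant, between 868 and 1547. Adipoq, Plin1 and Lep of 5 adipocyte markers were at 0, as were Col3a1, Lrat and Des of 7 stellate cell and fibroblast markers, and none of either list reached 100. The summed count of 6 endothelial markers ran from 62.5 to 407 in control and from 12.3 to 198 in Klf5 LKO. The part of these features in the order of the libraries was not tested. In bulk RNA, fewer cells of a type and less RNA per cell cannot be told apart. Markers of the labelled cell type were abundant in every library, with Spp1 between 288036 and 456086. Of 8 biliary markers tested, 4 had an unadjusted p under 0.05 and 1 passed with limma, Sctr (log2 difference 0.78, adjusted p = 0.0275). Over all tested genes these shares were 10.9% and 0.652%. Krt19 (-0.74) and Krt7 (-0.63), cholangiocyte keratins, were lower in every Klf5 LKO library, and Cftr (0.58), a chloride channel, was higher in every one. These 3 passed with DESeq2 (adjusted p = 0.00192, 0.000905 and 0.00508) and not with limma. Of all tested genes 15.6% had groups without overlap, and DESeq2 called 2.48%. The part of these markers in the differences of Acss2 and Me1 was not tested.

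**Figure D3:**
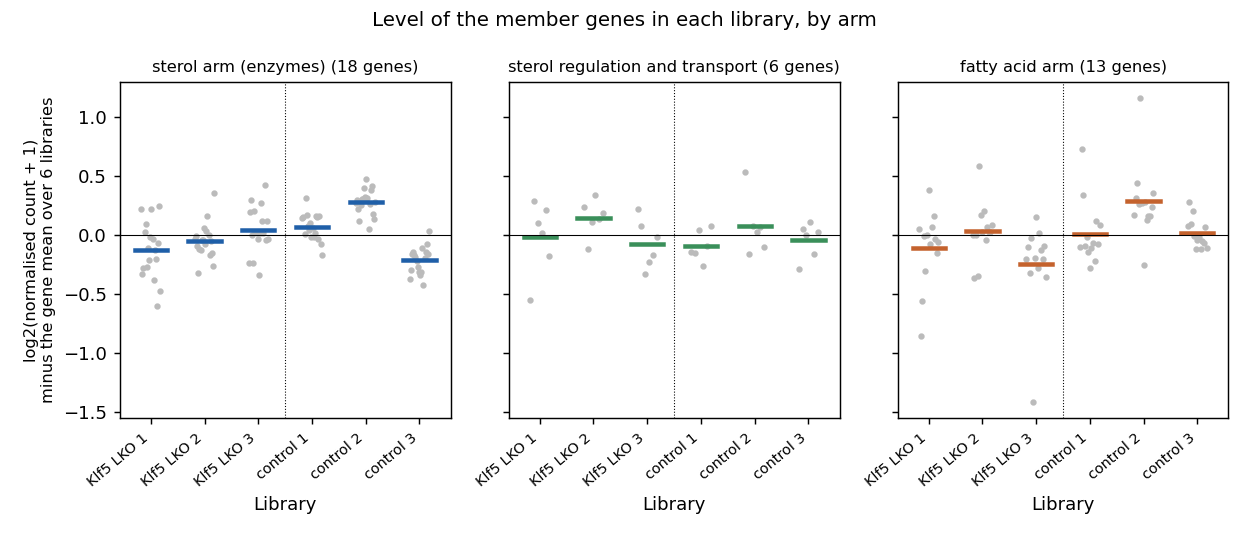
Deviation of each gene (grey points) from its mean over the 6 libraries, on the log2(normalised count + 1) scale, by library and arm; the coloured bar is the mean of the arm. In the sterol enzymes the bar is at 0.28 in control 2 and at -0.21 in control 3, with all 3 Klf5 LKO bars between them.

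The fatty acid arm begins with the enzymes that supply acetyl-CoA and NADPH. Acss2 (chromosome 2, 155517948 to 155585724, plus strand, mm10), which makes acetyl-CoA from acetate, had normalised counts of 600.5, 450.4 and 439.9 in control libraries 1, 2 and 3 and 200.5, 282 and 339 in Klf5 LKO. Every Klf5 LKO library lay below every control. The means were 497 ± 89.8 in the controls and 274 ± 69.4 in Klf5 LKO, 1.82 times higher in control, and the log2 difference was -0.88 (SE 0.24, 95% interval -1.41 to -0.35, adjusted p = 0.163). It did not pass with limma, edgeR (adjusted p = 0.179) or limma-voom (0.160), and lay at adjusted p = 0.0513 with DESeq2 on the tested genes. With DESeq2 on all listed genes it passed (0.0478), as it does in the authors' deposited table (log2 fold change -0.63, adjusted p = 0.0467). When 1 library was left out the limma log2 difference stayed between -1.05 and -0.67 and the adjusted p between 0.157 and 0.507.

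Me1 (chromosome 9, 86581371 to 86695953, minus strand), the cytosolic malic enzyme that makes NADPH, had 6503, 7001 and 5513 in the controls and 3491, 5154 and 4131 in Klf5 LKO. Again no Klf5 LKO library reached a control, the nearest being Klf5 LKO 2 and control 3. The means were 6339 ± 758 in the controls and 4259 ± 839 in Klf5 LKO, 1.49 times higher in control, with a log2 difference of -0.59 (SE 0.15, 95% interval -0.92 to -0.25, adjusted p = 0.145). It passed with DESeq2 (log2 difference -0.57, adjusted p = 0.0147) and not with limma, edgeR (0.186) or limma-voom (0.160). In the authors' deposited table its log2 fold change was -0.50 (adjusted p = 0.0180), and 2 of the 37 members, Acss2 and Me1, passed there as lower, where 2.41% of genes passed and 1.51% as lower. When 1 library was left out the limma log2 difference stayed between -0.73 and -0.45 and the adjusted p between 0.0610 and 0.506.

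How reads were assigned bears on both genes. No 50-base stretch of Acss2 transcripts occurs in another annotated gene, but 3 genes on the opposite strand overlap its exons, and the counting of strand is not given in the sources used here. Of these, Gss had 2588 ± 241 in the controls and 2296 ± 346 in Klf5 LKO (log2 difference -0.18), Ggt7 209 ± 50.6 in the controls and 219 ± 29.1 in Klf5 LKO (0.085), and Acss2os at most 3.16 normalised counts in any library. In Me1, 22.9% of 50-base stretches also occur elsewhere, mostly in Gm7049. A330041J22Rik, on the opposite strand of Me1, had at most 16.4 normalised counts. Genes on the opposite strand also overlap exons of other members, among them Fdft1 (Ctsb), Cyp51 (Akap9), Elovl1 (Cdc20) and Srebf1 (Rai1). The leukocyte markers were lower in Klf5 LKO by their median, as given above. Their sums by library are also given above. With a term for the leukocyte marker level the log2 differences were -0.88 for Acss2 and -0.61 for Me1 (limma adjusted p = 0.209 and 0.164). With a term for the hepatocyte marker level they were -0.92 and -0.56 (limma adjusted p = 0.209 and 0.224). Terms fitted on 6 libraries cannot decide the part of other cell types in these differences, which was not tested. Of related enzymes, named after their values were seen, Acss1, the mitochondrial counterpart of Acss2, had 292, 324 and 397 in the controls and 145, 155 and 299 in Klf5 LKO (-0.82, adjusted p = 0.319), with 1 Klf5 LKO library above the lowest control. Me2, a mitochondrial malic enzyme, had 2257, 2695 and 2265 in the controls and 3428, 2883 and 2879 in Klf5 LKO, higher in every Klf5 LKO library (0.35, adjusted p = 0.346). Me3, a further malic enzyme, had 129 ± 49.0 in the controls and 167 ± 61.5 in Klf5 LKO. Its groups overlapped (0.37, limma adjusted p = 0.803).

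**Figure D4:**
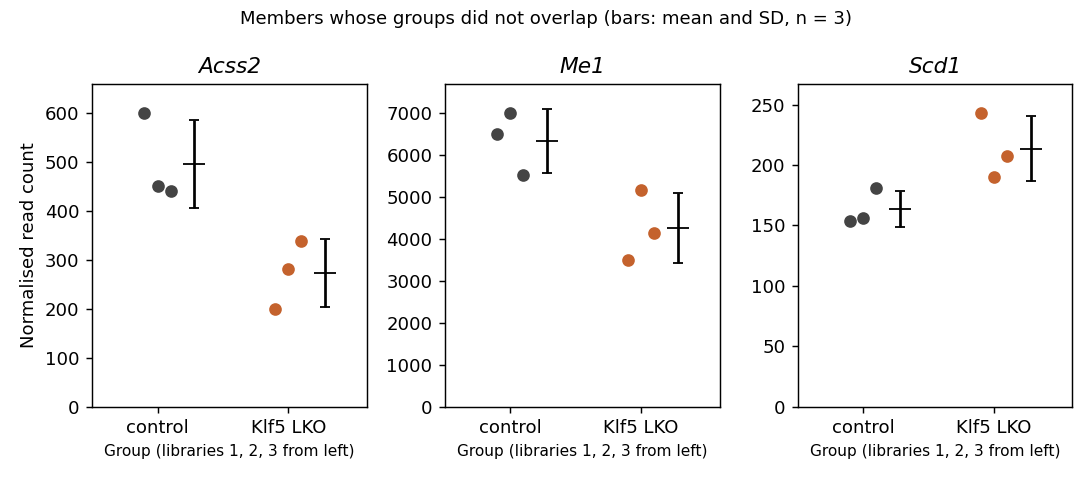
Normalised read counts of Acss2, Me1 and Scd1 in each library (points; libraries 1, 2 and 3 from left to right within a group), with the mean and SD of each group beside them (n = 3). Acss2 runs from 439.9 to 600.5 in control and from 200.5 to 339 in Klf5 LKO, Me1 from 5513 to 7001 and from 3491 to 5154, and Scd1 from 154 to 181 and from 190 to 243.

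Acly, which makes acetyl-CoA from citrate, had 4988, 6003 and 5622 in the controls and 5528, 5351 and 4624 in Klf5 LKO, with a log2 difference of -0.10 (interval -0.37 to 0.17), the narrowest interval of the 37. Acaca, the carboxylase that makes malonyl-CoA for synthesis, had 658, 842 and 806 in the controls and 698, 552 and 689 in Klf5 LKO (-0.25, interval -0.63 to 0.13), and 30.4% of its 50-base stretches also occur in other annotated genes. Acacb, the carboxylase that makes malonyl-CoA at mitochondria, was the lowest of the 37 per length, 7.70 normalised counts per kilobase. Its libraries held 63.5, 145 and 64.0 in the controls and 51.8, 96.9 and 23.4 in Klf5 LKO. They overlapped and scattered widely, and its interval, -1.98 to 0.46, was the widest of the 37. Fasn, the synthase itself, had 4025, 5377 and 4105 in the controls and 4451, 5014 and 3891 in Klf5 LKO, a log2 difference of -0.011 (interval -0.33 to 0.31, adjusted p = 0.986). The groups overlapped, with control 2 the highest library and Klf5 LKO 3 the lowest.

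Among the desaturases, Scd2 was far more abundant than Scd1. Both put the first double bond into saturated fatty acids, and Scd1 is the main form in hepatocytes. Scd2 was 48.0 to 68.1 times higher than Scd1 per kilobase of exon in control and 34.3 to 53.2 times higher in Klf5 LKO. The transcripts share few 50-base stretches with other genes, 4.56% in Scd1 and 3.97% in Scd2. Scd1 had 154, 156 and 181 in the controls and 243, 190.0 and 208 in Klf5 LKO, every Klf5 LKO library above every control, with a log2 difference of 0.38 (SE 0.26, 95% interval -0.18 to 0.94, adjusted p = 0.645). Scd2 had 9122, 11909 and 9704 in the controls and 9321, 11300.4 and 8118 in Klf5 LKO with wide overlap (-0.10, interval -0.43 to 0.23). Fads1, which desaturates polyunsaturated chains, had 3238 ± 353 in the controls and 2908 ± 184 in Klf5 LKO (-0.15, interval -0.43 to 0.13), and Fads2, which does so at another position, 3608 ± 588 in the controls and 3088 ± 465 in Klf5 LKO (-0.22, interval -0.56 to 0.11).

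The elongases showed small differences. Elovl1, which lengthens very long chains, had 1966 ± 182 in the controls and 2006 ± 75.1 in Klf5 LKO (0.032, interval -0.24 to 0.31). Elovl5, which lengthens polyunsaturated chains, had 2444 ± 329 in the controls and 2563 ± 259 in Klf5 LKO (0.072, interval -0.23 to 0.38). Elovl6, which lengthens the product of the synthase, had 1195 ± 98.3 in the controls and 1083 ± 88.9 in Klf5 LKO (-0.14, interval -0.45 to 0.17). Over the 13 genes of the arm the median log2 difference was -0.14, against -0.0052 over all tested genes, with 10 below and 3 above 0. For 11 of the 13 the 95% interval lay within 1 log2 unit of 0, the exceptions being Acss2 and Acacb. The difference between the arms was not tested.

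The other genes of the pathways gave no calls. In 7 lists with 80 genes, of which 77 were tested, 0 rose, 0 fell and 8 had an unadjusted p under 0.05, where 0.652% of all tested genes passed and 10.9% had such a p, and the medians of the lists lay between -0.047 and 0.10. By list, 0 of 10 partners of SREBP processing passed, 0 of 10 genes of the isoprenoid branch, 0 of 7 of LXR and sterol export, 0 of 10 of sterol uptake, trafficking and storage, 0 of 17 of fatty acid activation and elongation, 0 of 11 of glycerolipid synthesis and 0 of 12 of fatty acid oxidation. The lowest p in sterol uptake was in Scarb1, a receptor for high-density lipoprotein, with 1542, 1761 and 1563 in the controls and 963, 1367 and 1297 in Klf5 LKO. Its groups did not overlap and its log2 difference was -0.44 (adjusted p = 0.317). Gramd1a, a carrier of sterol from the plasma membrane, had 586 ± 75.7 in the controls and 769.8 ± 159 in Klf5 LKO (0.38, adjusted p = 0.532).

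In fatty acid control the lowest p was in Mlxipl, the carbohydrate-responsive factor that works beside SREBP on lipogenic genes, with 203, 221 and 278 in the controls and 167, 149 and 114 in Klf5 LKO (-0.71, adjusted p = 0.363). Mid1ip1, a partner of acetyl-CoA carboxylase, had 1596 ± 154 in the controls and 1940.4 ± 157 in Klf5 LKO (0.28, adjusted p = 0.478). In glycerolipid synthesis Dgat2, which adds the last acyl chain of triglyceride, had 1327, 1207 and 1360.4 in the controls and 906, 905 and 1016 in Klf5 LKO. Its groups stood apart, at a log2 difference of -0.46 (adjusted p = 0.210). Agpat4, an acyltransferase, had 415, 474 and 296 in the controls and 767, 604 and 573 in Klf5 LKO, higher in every Klf5 LKO library (0.73, adjusted p = 0.208).

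In the isoprenoid branch Ggps1, which makes geranylgeranyl diphosphate, had 829 ± 116 in the controls and 1059 ± 55.9 in Klf5 LKO (0.36, adjusted p = 0.428), and Pggt1b, a subunit of a prenyl transferase, 654 ± 70.5 in the controls and 798 ± 117 in Klf5 LKO (0.28, 0.603). Of the LXR genes Nr1h2, an LXR receptor, had 1357 ± 185 in the controls and 1781 ± 326 in Klf5 LKO (0.38, adjusted p = 0.414), and Mylip, an LXR target, was low, between 4.11 and 64.0 in any library. Cpt1a, the gate of mitochondrial fatty acid oxidation, had 2141 ± 359 in the controls and 1679 ± 181 in Klf5 LKO (-0.34, adjusted p = 0.446), and Hadha, a subunit of the trifunctional protein, 1769 ± 52.7 in the controls and 1410.4 ± 267 in Klf5 LKO (-0.35, 0.453). Rnf139 and Erlin2, partners of INSIG at the endoplasmic reticulum, had log2 differences of 0.21 and 0.21 (adjusted p = 0.657 and 0.709). None of these genes passed with limma.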

How the data were processed

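RNA was amplified from 4 ng with SMARTer and made into libraries with Nextera XT, with 10 pre-amplification and 7 enrichment PCR cycles, per the labels' protocols. TopHat, Bowtie2, DESeq2 and the build mm10 are named in the submitters' processing notes, and these do not state the counter, the annotation, filters or any use of strand. The authors deposited normalised counts, a signal equal to read counts divided by 1 size factor per library: whole reads were recovered for 100% of values above 0 within a tolerance of 0.001 reads. The authors' deposited table of the comparison gives log2 fold changes, a test statistic (a score) and p-values with their adjusted values, and it was used only where named. For Acss2 and Me1 its log2 fold changes are smaller in size than those of the DESeq2 refit on the tested genes. So are those of Acacb (-0.22 against -0.65) and Scd1 (0.26 against 0.38), while Acly was close (-0.091 against -0.099). Any shrinkage in the deposited values is not stated.

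Genes with a mean of at least 10 were tested with limma 3.58.1 in R 4.3.3 (lmFit and eBayes with a trend) on log2(normalised count + 1), with groups as the only term, Benjamini-Hochberg adjustment over 13490 genes, a two-sided threshold of 0.05 and 95% confidence intervals. The pseudocount of 1 understates changes of low genes. The design had edgeR as the main test for raw counts, and limma was used because the values were normalised. The procedure was tested on simulated data. Alternatives were TMM and upper quartile scaling, a filter at a mean of 50 and none, a pseudocount of 0.5 or 5, edgeR 4.0.16, DESeq2 1.42.0 and limma-voom on recovered reads, a replicate block, terms for leukocyte or hepatocyte marker level, and leaving out each library. Levels per kilobase use the union of exons in GENCODE M21 (GRCm38), where 23350 of 24404 symbols matched. Promoters came from a RefSeq table of GRCm38.p6. Every tested member is named, with the 2 genes of lowest p from each other pathway list where none passed and the most abundant gene of each marker list. Other named markers were chosen after their values were seen. The members and all lists were chosen with earlier results of these data known.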

Additional observations from a re-analysis of the deposited data

How the results depend on the processing

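The 37 log2 differences were recomputed under 19 alternatives, 703 values in all. Of these, 641 kept their direction and their side of the threshold, 3 passed it (Me1 with DESeq2 in both of its settings, Acss2 with DESeq2 on all listed genes) and 59 changed sign. All 21 genes with a changed sign had a difference of at most 0.16 in size, and 16 genes kept their direction in all 19, Acss2, Me1, Acacb and Scd1 among them. Over all tested genes the count of calls was 88 with limma. It was 335 with DESeq2, 345 with DESeq2 on all listed genes (added after the data were seen) and 57 with a hepatocyte marker term. It ran from 14 (without control 2) to 105 (without Klf5 LKO 1) when 1 library was left out, and was 24 without control 1, 49 without Klf5 LKO 3 and 53 without control 3. Members called numbered 1 with DESeq2, 2 with DESeq2 on all listed genes and 0 in the other 17. In the 7 lists of other pathway genes the count was 0 in all 19.

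The median of the sterol enzymes ran from -0.24 to 0.035 and that of the fatty acid arm from -0.19 to -0.071 when 1 library was left out. With 1 library left out, log2 differences whose sign changed ran from -0.22 to 0.10 for Acat2, -0.27 to 0.041 for Hmgcs1, -0.21 to 0.074 for Mvk, -0.21 to 0.049 for Fdps, -0.33 to 0.0045 for Fdft1, -0.15 to 0.17 for Sqle, -0.33 to 0.073 for Lss, -0.14 to 0.17 for Cyp51, -0.094 to 0.23 for Tm7sf2, -0.22 to 0.13 for Msmo1, -0.41 to 0.11 for Hsd17b7, -0.034 to 0.22 for Sc5d, -0.30 to 0.11 for Dhcr7, -0.23 to 0.19 for Insig1, -0.15 to 0.066 for Scap, -0.063 to 0.22 for Srebf1, -0.10 to 0.084 for Stard4, -0.10 to 0.12 for Fasn, -0.23 to 0.013 for Scd2, -0.018 to 0.11 for Elovl1 and -0.020 to 0.17 for Elovl5. With a leukocyte marker term the value became 0.12 for Acat2, 0.013 for Lss, -0.021 for Tm7sf2, 0.10 for Msmo1, -0.017 for Srebf1. With upper quartile scaling the value became -0.0063 for Sqle, -0.0053 for Cyp51. With edgeR the value became -0.018 for Sqle, -0.016 for Cyp51. With DESeq2 the value became -0.015 for Sqle, -0.013 for Cyp51, 0.0022 for Stard4. With DESeq2 on all listed genes the value became -0.015 for Sqle, -0.013 for Cyp51, 0.0024 for Stard4. With a hepatocyte marker term the value became -0.0048 for Cyp51, 0.018 for Stard4, 0.028 for Fasn. The cause was not tested.

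A replicate block, pairing libraries with the same number, called 110 genes and 0 members. Correlations of the deviations of same-numbered libraries were 0.185, -0.012 and 0.106, and Klf5 LKO 2 had its highest correlation, 0.138, with control 3. These correlations, from few libraries, cannot decide whether the numbers pair the samples. At 3 reads, the smallest level told from 0 was a normalised count of 2.24 to 4.74 by library.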
